A study of Homo sapiens with 3 samples.

Results

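The 6 genes GNB1, RDX, TRIB2, LIMCH1, EMP2 and KCNJ2 stood out in Rh-30 cells because their siCont value lay apart from the values of both knockdown arrays. Every probe set paired with these symbols in the platform table was taken, which gave 18 probe sets of 54675 on the array. The genes had been chosen for a siCont intensity at least 2-fold apart from both siPF and siB7-H3, in the same direction, at a mean log2 intensity of at least 9 (called bright here). These siCont differences are therefore given as a description and support nothing further. Of the 18 probe sets, 9 met that rule, with at least 1 for each gene.
Rh-30 is an established cell line of alveolar rhabdomyosarcoma (ARMS), a muscle-like tumor, and carries the PAX3-FOXO1 fusion gene. The cells were transfected with siRNA targeting PAX3-FOXO1 (siPF), siRNA targeting B7-H3 (siB7-H3) or control siRNA (siCont), each at 5 nM and with 1 siRNA per target, and the deposit places RNA extraction 24 h later. All 3 conditions shared the transfection reagent and the medium with 10% fetal bovine serum. RNA of each condition was hybridized to 1 Affymetrix U133 Plus 2.0 array, which reads most human genes with one or several probe sets, so there was no replicate error and no test between conditions, and the effect of a siRNA cannot be told apart from the array and culture it was measured on.

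The genes act at the cell membrane and the cytoskeleton or in signaling. GNB1 encodes a beta subunit of heterotrimeric G proteins, which pairs with a gamma subunit and carries signals from membrane receptors to enzymes and ion channels. RDX encodes radixin, which with ezrin and moesin links the plasma membrane to actin filaments, and LIMCH1 encodes an actin-associated protein that activates non-muscle myosin II. EMP2 encodes a small membrane protein of the PMP22 family. TRIB2 encodes a Tribbles pseudokinase, which brings substrates such as C/EBP alpha to the ubiquitin ligase COP1 and is known to restrain FOXO3. KCNJ2 encodes Kir2.1, an inward rectifier potassium channel that holds the resting membrane potential of muscle cells and is known to hyperpolarize human myoblasts as they start to differentiate.

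GNB1, RDX, TRIB2, LIMCH1 and EMP2 were higher on both knockdown arrays than on the siCont array, and KCNJ2 was lower. In RNA of whole cultures, fewer cells with a transcript and less of it per cell cannot be told apart. Over the 18 probe sets, 16 were higher in siPF than in siCont and 16 were higher in siB7-H3 than in siCont, where 51.4% and 50.0% of the 41091 probe sets named with 1 gene were. The median log2 difference over the 18 was 1.43 for siPF and 1.17 for siB7-H3, and over all 41091 probe sets it was 0.015 and 0.000. Both comparisons used the same siCont array, and the siCont contrast chose the genes, so these counts only describe what was selected. Among 11685 bright probe sets named with 1 gene, 38 (0.325%) were at least 2-fold higher and 3 (0.0257%) at least 2-fold lower on both knockdown arrays than in siCont. These 41 probe sets belonged to 35 genes, of which the 6 genes are part.

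The arrays were alike in 3' to 5' ratio and differed in their spike-in transcripts. The trimmed mean intensity, with 2% of probe sets left out at each end, came to 500.1 on all 3 arrays. Scaling every array to a common target would give this, so it is no evidence that the arrays were alike. The 3' to 5' intensity ratio of the GAPDH and ACTB control probe sets lay between 0.907 and 1.02. The 26 bright probe sets for spike-in transcripts, added during preparation, had a median log2 difference of 0.23 for siPF (-0.19 to 0.42) and 0.24 for siB7-H3 (-0.04 to 0.59), and none was 2-fold apart in both. Over all bright probe sets the median was 0.011 and 0.010. The part of this shift in the results was not tested. The brightest CD276 probe set, for the gene of B7-H3, had intensities of 1381 in siPF, 362 in siB7-H3 and 1486 in siCont, and that of FOXO1 had 249, 650.0 and 678. The brightest PAX3 probe set had 329 in siPF, 398 in siB7-H3 and 381 in siCont, and 207680_x_at had 194, 154 and 233. The dim 207679_at had 69.9, 48.4 and 24.5, and the dim 216059_at had 32.7, 14.6 and 22.0. Which of these PAX3 and FOXO1 probe sets reads the fusion transcript was not determined. All 7 markers examined for rhabdomyosarcoma with muscle character (MYOD1, MYOG, DES, FGFR4, MYCN, CDH15 and CHRNA1) had intensities of at least 605. Of 7 markers of other cell types, 6 stayed at or under 72.3, and PECAM1, an endothelial marker, had 621 to 910.1.

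RefSeq (GRCh38.p14) holds 9 start sites for the 6 genes, 4 of them for LIMCH1, and the 250 bases before each were searched on both strands. The sequences of 4 windows are shown as examples, those of TRIB2, LIMCH1 and KCNJ2 for the E-box or FOXO element they hold and that of EMP2 because all of its probe sets were past 2-fold. Capitals mark the GC box (GGGCGG), the E-box form bound by myogenic factors (CAGCTG) and a FOXO element (GTAAACA), on either strand. The windows are chr2:12716686-12716935 (plus strand) for TRIB2, chr4:41360557-41360806 (plus strand) for the most GC-rich start of LIMCH1, chr16:10580599-10580848 (minus strand) for EMP2 and chr17:70169282-70169531 (plus strand) for KCNJ2.
TRIB2: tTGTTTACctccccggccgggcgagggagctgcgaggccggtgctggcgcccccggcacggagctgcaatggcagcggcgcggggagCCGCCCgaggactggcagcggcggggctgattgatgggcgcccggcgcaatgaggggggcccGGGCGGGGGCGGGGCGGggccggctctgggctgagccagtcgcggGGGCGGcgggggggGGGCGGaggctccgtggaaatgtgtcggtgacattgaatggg
LIMCH1: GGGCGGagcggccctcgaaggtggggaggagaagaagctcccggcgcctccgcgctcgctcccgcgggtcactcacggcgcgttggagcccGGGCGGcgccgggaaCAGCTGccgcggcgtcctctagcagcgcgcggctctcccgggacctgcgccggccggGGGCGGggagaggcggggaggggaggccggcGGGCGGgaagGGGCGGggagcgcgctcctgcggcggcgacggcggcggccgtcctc
EMP2: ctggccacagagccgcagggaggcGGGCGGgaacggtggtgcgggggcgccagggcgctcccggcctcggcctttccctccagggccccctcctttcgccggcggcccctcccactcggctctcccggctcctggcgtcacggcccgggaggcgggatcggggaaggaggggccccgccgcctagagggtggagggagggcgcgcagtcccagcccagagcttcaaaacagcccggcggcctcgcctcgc
KCNJ2: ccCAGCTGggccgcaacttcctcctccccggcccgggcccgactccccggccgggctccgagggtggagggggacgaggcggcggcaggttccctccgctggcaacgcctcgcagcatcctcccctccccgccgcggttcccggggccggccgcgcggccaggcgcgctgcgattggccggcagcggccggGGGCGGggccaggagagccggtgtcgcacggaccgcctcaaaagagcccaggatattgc
The window of TRIB2 holds 6 GC boxes, that of LIMCH1 5, and those of EMP2 and KCNJ2 1 each. A GC box is in 6 of the 9 windows, 1 for each gene, against 42.6% of all 35116 windows. These 6 are rich in G and C, with 76.8% to 82.0% against a median of 58.0%. The other 3 windows, all of LIMCH1, hold no GC box and have 44.4% to 50.0% G and C. Among the 3555 windows with at least 75% G and C, 94.9% hold a GC box. CAGCTG lies in the KCNJ2 window and in 2 LIMCH1 windows, and in 14.0% of all windows. TRIB2 alone of the 6 genes has the FOXO element, as TGTTTAC on the opposite strand near the far end of its window, as do 2.98% of all windows. The paired PAX core GTCACGC (2.20% of all windows) is in none of the 9, and neither are the AP-1 site TGANTCA (6.57%), the CRE core TGACGT (7.10%), the MEF2 site (0.515%) or the CArG box (1.16%). A match is a run of letters and no evidence of binding.

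**Figure D1:**
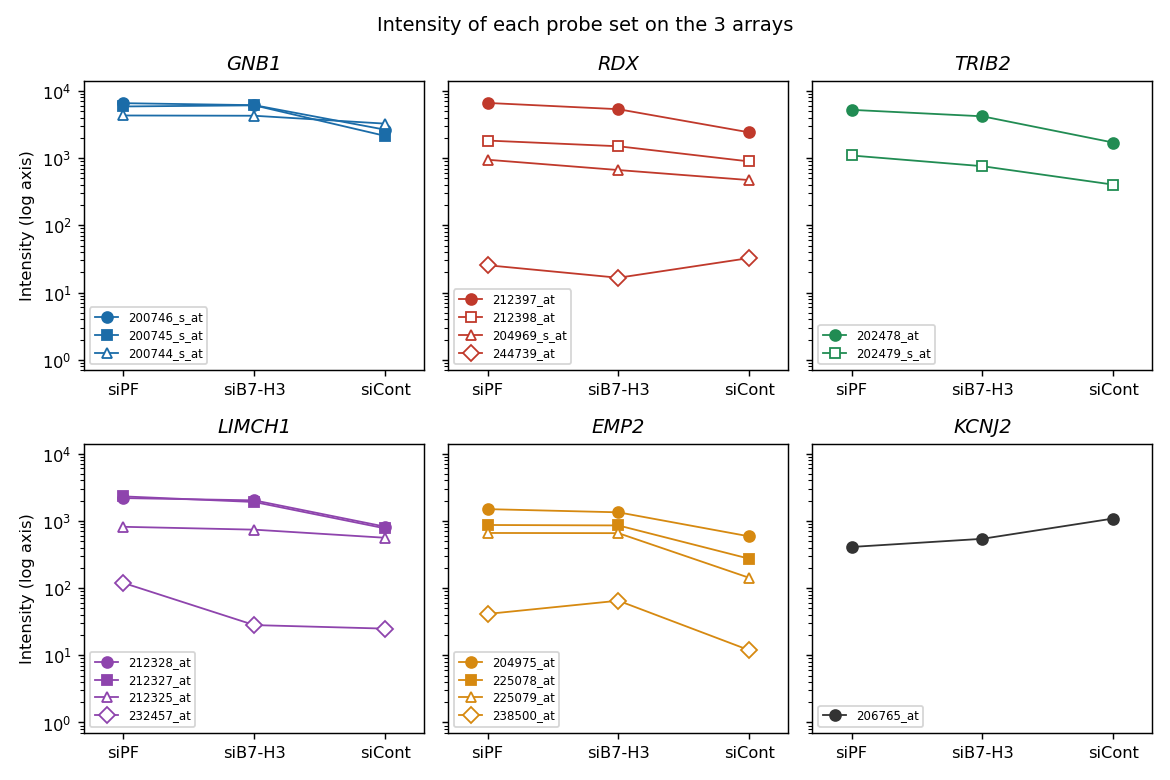
Intensity (log axis) of each probe set of the 6 genes on the siPF, siB7-H3 and siCont arrays, 1 panel per gene, with a line joining the values of 1 probe set. Filled symbols are the 9 probe sets that met the rule and open symbols the others. The bright probe sets of GNB1, RDX, TRIB2, LIMCH1 and EMP2 have their lowest value in siCont, and KCNJ2 has its highest there.

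GNB1 was measured by 3 probe sets, all bright, and lies at chr1:1785286-1891087 (GRCh38.p14, as for the genes that follow). Probe set 200745_s_at had intensities of 5859.8 in siPF and 6088 in siB7-H3, against 2139 in siCont. Probe set 200746_s_at had 6558 in siPF and 6128 in siB7-H3, against 2643 in siCont. The knockdown arrays thus lay 2.74-fold and 2.85-fold above siCont at the one, and 2.48-fold and 2.32-fold at the other. Probe set 200744_s_at had 4303 in siPF, 4264 in siB7-H3 and 3254 in siCont, with log2 differences of 0.40 and 0.39. It had the direction of the other GNB1 probe sets and stayed under 2-fold. The ending _s_at marks a probe set that can bind several transcripts, which holds for all 3 here. The siPF and siB7-H3 arrays were close to each other at all 3, with log2 differences between them of -0.06 to 0.10, whereas the SD of this difference over the bright probe sets was 0.29.

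RDX, at chr11:110174922-110296614, was higher on both knockdown arrays at its 3 bright probe sets, and 1 of them met the rule. Probe set 212397_at had 6613 in siPF and 5335 in siB7-H3, against 2414 in siCont, log2 differences of 1.45 and 1.14. Probe set 212398_at had 1823 in siPF, 1500.0 in siB7-H3 and 892 in siCont. Probe set 204969_s_at had 945 in siPF, 664 in siB7-H3 and 471 in siCont. In siPF these were 2.04-fold and 2.01-fold above siCont, and in siB7-H3 1.68-fold and 1.41-fold. The dim probe set 244739_at had 25.5 in siPF, 16.6 in siB7-H3 and 32.6 in siCont, and so was lowest in siB7-H3 and highest in siCont. On each array, 60% of all probe sets lay under 132 to 137, so this value is among the dim ones.

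TRIB2, at chr2:12716936-12742734, was the member with the largest siPF difference at its brightest probe set. Probe set 202478_at had 5220.0 in siPF and 4184 in siB7-H3, against 1703 in siCont, or 3.07-fold and 2.46-fold. Probe set 202479_s_at had 1093 in siPF, 758 in siB7-H3 and 403 in siCont, with log2 differences of 1.44 and 0.91. Both probe sets were highest in siPF, by log2 differences over siB7-H3 of 0.32 and 0.53. Differences between the knockdown arrays at least as far apart were found at 19.1% and 6.32% of the bright probe sets.

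LIMCH1, at chr4:41359607-41700044, had 4 probe sets, and 2 met the rule. Probe set 212327_at had 2307 in siPF and 1903 in siB7-H3, against 771 in siCont, or 2.99-fold and 2.47-fold. The brightest, 212328_at, had 2176 in siPF and 2014 in siB7-H3, against 818 in siCont, so at both the siCont value was well below the others. Probe set 212325_at had 814 in siPF, 738 in siB7-H3 and 559 in siCont, which was 1.46-fold and 1.32-fold. The dim probe set 232457_at had 119 in siPF, 28.1 in siB7-H3 and 24.9 in siCont. It was the one probe set of the 18 with more than 2-fold between siPF and siB7-H3, and none of the 14 bright ones was. The probes' positions along the transcript were not used here, so which of the LIMCH1 transcripts each reads is not known.

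EMP2, at chr16:10528422-10580598, had 4 probe sets, all of them more than 2-fold above siCont on both knockdown arrays. Of all probe sets named with 1 gene, 10.7% in siPF and 9.82% in siB7-H3 were that much higher. Probe set 225078_at had 866 in siPF and 853 in siB7-H3, against 273 in siCont, or 3.18-fold and 3.13-fold. Of the bright probe sets named with 1 gene, none had a larger smaller change, the lesser of the 2 differences. Probe set 225079_at had 659 in siPF and 655 in siB7-H3, against 142 in siCont, or 4.64-fold and 4.61-fold, with siCont close to the 60th percentile of its array. The brightest, 204975_at, had 1491 in siPF and 1337 in siB7-H3, against 587 in siCont, with the smallest log2 differences of the 4, at 1.34 and 1.19. The dim probe set 238500_at had 41.2 in siPF, 64.8 in siB7-H3 and 11.9 in siCont. At the 3 brighter EMP2 probe sets the siPF and siB7-H3 arrays differed by a log2 difference of at most 0.16.

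KCNJ2, at chr17:70169532-70180044, was lower on both knockdown arrays and had 1 probe set, so no other measure of it was at hand. Probe set 206765_at had 408 in siPF and 539.5 in siB7-H3, against 1081 in siCont, or 2.65-fold and 2.0-fold lower. The siB7-H3 array lay just past the limit, with a log2 difference of -1.0, and the siPF array was the lowest, by -0.40 against siB7-H3.

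The rule's limits fell between probe sets of the same gene. Just inside were KCNJ2, with its 2.0-fold difference in siB7-H3, and RDX 212397_at, with 2.21-fold. Just outside were TRIB2 202479_s_at, with 1.88-fold in siB7-H3, and RDX 212398_at, with 1.68-fold. At the level limit of 9, EMP2 225078_at was inside at a mean log2 of 9.20 and EMP2 225079_at was outside at 8.62. In all, 11 of the 14 bright probe sets of the 6 genes were at least 2-fold higher in siPF and 8 in siB7-H3, where 0.847% and 0.513% of all bright probe sets were. The KCNJ2 probe set was at least 2-fold lower in both, where 0.471% of all bright probe sets were in siPF and 0.582% in siB7-H3. The genes were chosen for such differences, so these counts only describe the choice.

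**Figure D2:**
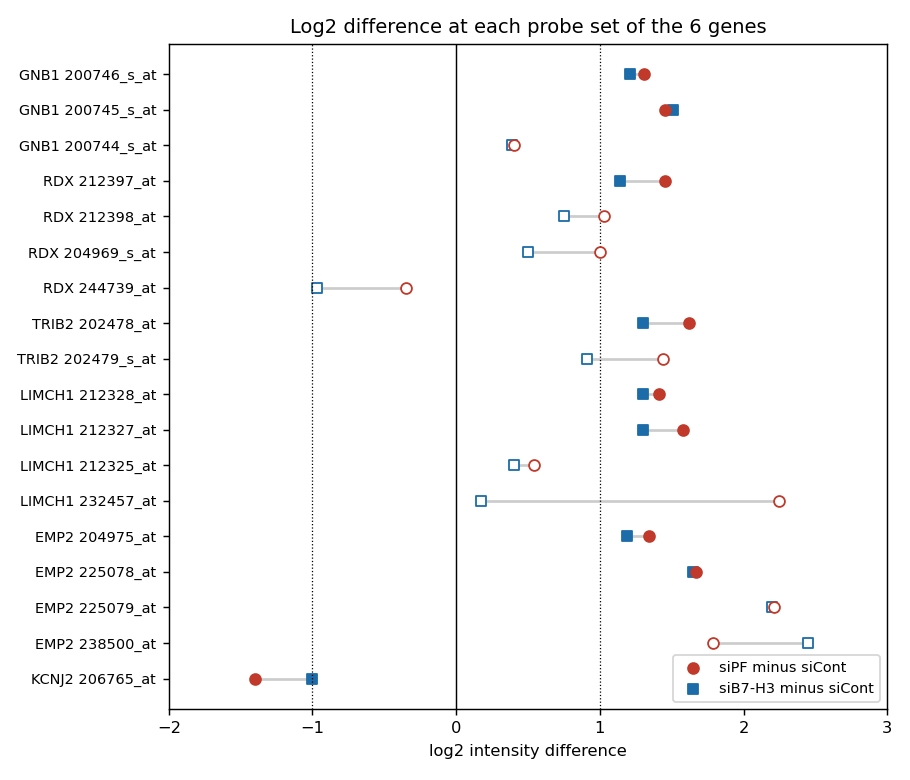
Log2 intensity difference of siPF (circles) and siB7-H3 (squares) to siCont at each of the 18 probe sets, grouped by gene. Filled symbols are the probe sets that met the rule, and dotted lines mark 2-fold. All 4 EMP2 probe sets lie past 2-fold, whereas those of GNB1 range from 0.39 to 1.51 and KCNJ2 lies at -1.40 and -1.0.

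At the probe sets that met the rule, siPF and siB7-H3 differed from each other by less than each differed from siCont. The rule asked for both arrays on the same side of the same siCont value, so this is partly built in. It is no separate evidence that the knockdowns were alike. Of the 9 probe sets that met the rule, 8 were further from siCont in siPF than in siB7-H3. Among the 38 bright probe sets at least 2-fold higher on both knockdown arrays, which include 8 of these 9, 60.5% were further from siCont in siPF. The log2 difference between siPF and siB7-H3 at the 9 probe sets ranged from -0.40 at KCNJ2 to 0.32 at TRIB2. Over all bright probe sets this difference ran from -0.58 at the 2.5th to 0.57 at the 97.5th percentile. No bright probe set of the 6 genes lay past 2-fold between the knockdown arrays, where 0.471% of bright probe sets were higher and 0.385% lower in siPF than in siB7-H3 by that much.

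**Figure D3:**
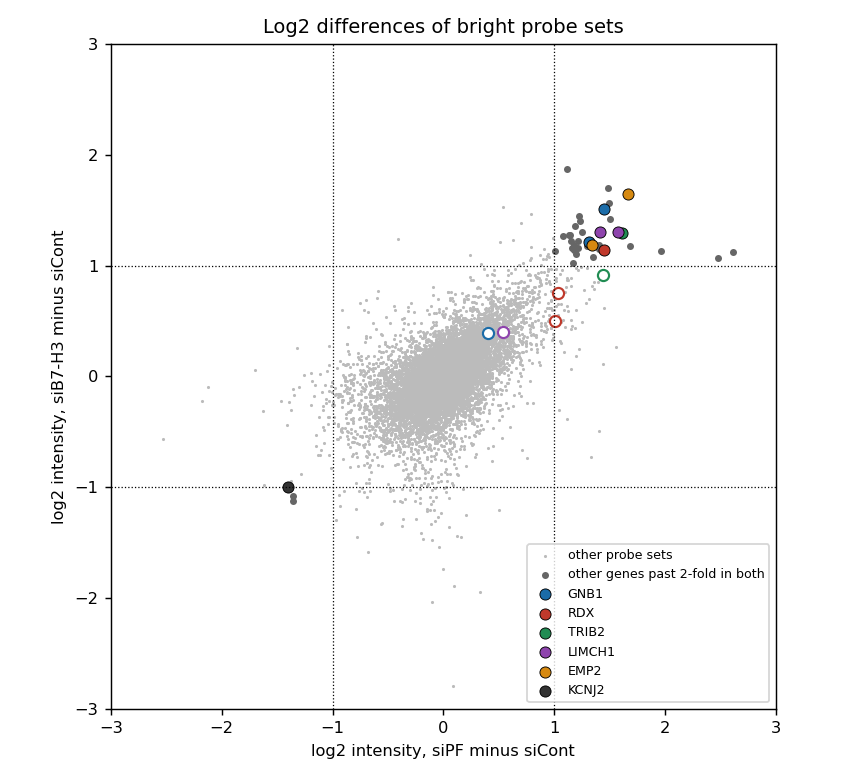
Log2 intensity difference to siCont for siPF on the horizontal axis and siB7-H3 on the vertical axis, over the 11685 bright probe sets, 1 point each. Colored points are the 14 bright probe sets of the 6 genes, filled where they met the rule, dark gray points are the 32 probe sets of other genes that did, and dotted lines mark 2-fold. KCNJ2 lies at the lower left with 2 other probe sets, and the remaining filled points lie at the upper right.

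The same rule was met by 32 probe sets of 29 other genes, 27 of them higher and 2 lower on both knockdown arrays. The 10 with the largest smaller change were AGO4, LSM14A, RTF1, SAR1B, CYB5R4, TK2, TACC2, SCAMP1, YWHAH and TEAD1. At a probe set that met the rule, all 10 were higher. They include AGO4, one of the Argonaute proteins, RTF1, a transcription elongation factor, SAR1B, a GTPase of vesicle coats, YWHAH, a 14-3-3 protein, and TEAD1, a transcription factor of the Hippo pathway. The other lower genes were XRCC4, a DNA end-joining factor, with log2 differences of -1.36 and -1.13 at probe set 205072_s_at, and FXR2, an RNA-binding protein. At its other probe set, 35265_at, FXR2 had 0.11 and -0.09. XRCC4 had -0.77 and -0.81 at its brightest probe set, 205071_x_at, and 0.48 and 0.06 at the dim 210812_at. Other probe sets of the 10 higher genes varied too. Probe set 222842_at of AGO4 had 1.90 and 1.30, and the brightest of RTF1, 212301_at, had 0.78 and 0.76. The dim 242325_at of YWHAH had -0.35 in both. At least 2 probe sets met the rule in 6 of the 35 genes, and GNB1, LIMCH1 and EMP2 were 3 of these 6.
Likeness was measured as the distance between pairs of log2 differences (siPF and siB7-H3 to siCont) over the 3 arrays, among bright probe sets of other genes, and 0 would mean the same pair. SCAMP1, a membrane protein of vesicle recycling, was nearest to GNB1 at 0.035 and to EMP2 at 0.016. STEAP3, a metalloreductase, was nearest to RDX at 0.025, and SAR1B was nearest to LIMCH1 at 0.118. LIMCH1, through 212327_at, was nearest to TRIB2 at 0.036. FUBP3, a DNA-binding and RNA-binding protein, was nearest to KCNJ2 at 0.061, with 1848 in siPF, 2489.9 in siB7-H3 and 4804 in siCont. The second genes in likeness were NT5DC2 for GNB1, DHX40 for RDX, LBH for TRIB2, SCAMP1 for LIMCH1, GNB1 for EMP2 and FXR2 for KCNJ2.

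The relatives of the 5 higher genes named next, picked after their values were seen, were less than 2-fold apart from siCont. Other members of the same lists were not all so, and MICAL1, with a LIM domain like LIMCH1, is given with the lists. GNB2, GNB3, GNB4 and GNB5, the other G protein beta subunits, had log2 differences of -0.11, -0.32, -0.60 and -0.89 in siPF and of -0.32, -0.37, -0.05 and -0.04 in siB7-H3. GNB4, for example, had an intensity of 4083 in siPF and 5980.2 in siB7-H3, against 6198 in siCont. EZR and MSN, the genes of ezrin and moesin, had log2 differences of -0.12 and -0.13 in siPF and -0.23 and -0.09 in siB7-H3, and NF2, which encodes the related protein merlin, had 0.31 and 0.39.
Among the Tribbles genes, TRIB1 had log2 differences of 0.18 in siPF and 0.35 in siB7-H3, and TRIB3 had -0.48 and -0.21. LMO7, a relative of LIMCH1, had -0.02 in siPF and 0.02 in siB7-H3. EMP1 had -0.88 in siPF and -0.01 in siB7-H3, with 4362, 7992 and 8043 in siPF, siB7-H3 and siCont, and EMP3 had 0.17 in siPF, with 3705 in siB7-H3 against 3706 in siCont. The other inward rectifiers measured were dim, at a mean log2 under 7, where differences past 2-fold went both ways and are not read here.

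**Figure D4:**
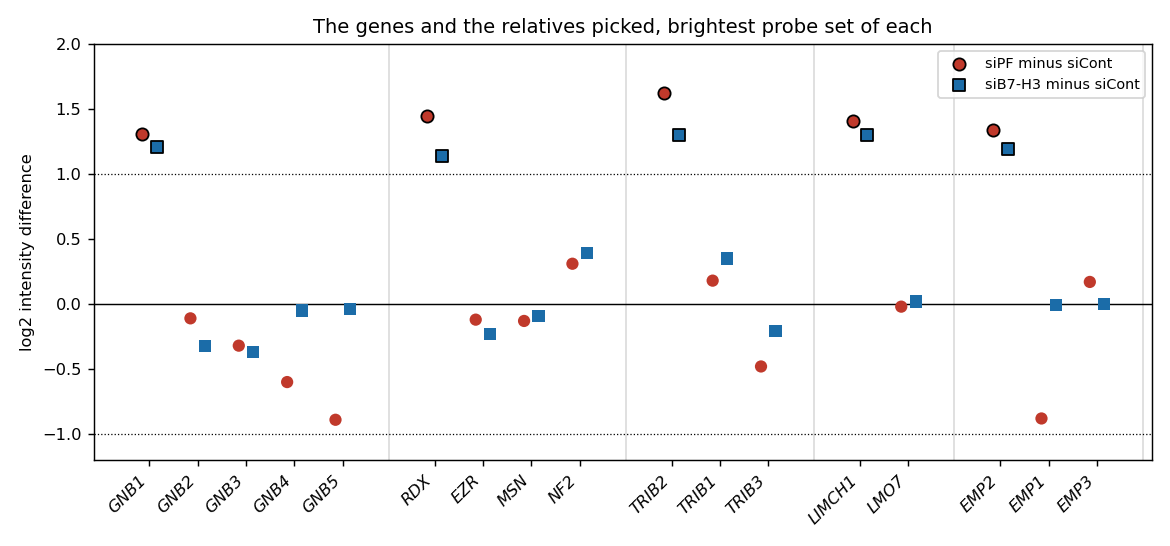
Log2 intensity difference of siPF (circles) and siB7-H3 (squares) to siCont for GNB1, RDX, TRIB2, LIMCH1 and EMP2 (outlined) and the relatives picked, each by its brightest probe set. Dotted lines mark 2-fold. The 5 outlined genes lie past 2-fold, and these relatives lie between -0.89 and 0.39.

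Lists of partners held 3 other genes past 2-fold at a mean log2 of at least 7. The lists covered G protein subunits, membrane to actin linkers, Tribbles partners, non-muscle myosin II, the PMP22 family with partners of EMP2, potassium and calcium channels and genes of myoblast differentiation, and held 118 measured genes beside the 6. Of these, 80 had a mean log2 of at least 7. In siPF 3 of the 80 were at least 2-fold higher and none lower, where 1.11% and 0.837% of all 10277 genes at that level were. In siB7-H3 1 was higher and none lower, where 0.642% and 0.603% were. The shares of higher genes were thus above those of all genes, from counts of 3 and 1 in lists chosen with earlier results known. The 3 genes were GNAZ, MICAL1 and MYOG, and the 1 in siB7-H3 was MYOG.
GNAZ, a G protein alpha subunit of the inhibitory class, had 773 in siPF and 611 in siB7-H3, against 347 in siCont, log2 differences of 1.15 and 0.82. MICAL1, an enzyme that oxidizes and disassembles actin filaments, had 578 in siPF and 382 in siB7-H3, against 244 in siCont, log2 differences of 1.24 and 0.65. MYOG, the gene of myogenin, had log2 differences of 2.48 and 1.07 and met the rule for the 35 genes as well.
Among 11 measured G protein beta and gamma subunits at that level, GNB1 included, the median log2 difference was -0.19 in siPF and -0.04 in siB7-H3. The gamma subunits GNG5 and GNG12 had -0.02 and -0.13 in siPF and 0.05 and 0.04 in siB7-H3, and GNG10 had -0.68 and -0.01. Among 13 membrane to actin linkers, RDX included, the medians were 0.04 and -0.04. SLK, a kinase of these proteins, had 0.02 and -0.04, and the adhesion receptor CD44 had -0.26 and -0.09.
Of the TRIB2 partners, COP1 had log2 differences of -0.08 in siPF and -0.43 in siB7-H3, and FOXO3, a transcription factor that TRIB2 is known to restrain, had 0.80 and 0.78. FOXO3 had 3749 in siPF and 3701 in siB7-H3, against 2149 in siCont, short of 2-fold in both. These are RNA values, and the arrays do not read FOXO3 protein or its activity. MYH9 and MYH10, genes of non-muscle myosin heavy chains in the LIMCH1 list, had 0.06 and 0.11 in siPF and -0.18 and 0.12 in siB7-H3.
Among 11 genes of the PMP22 family and partners of EMP2, EMP2 included, the median log2 difference for siPF was -0.42 and for siB7-H3 was -0.01. PTK2, the focal adhesion kinase that EMP2 is known to bind, had 1542 in siPF and 2013 in siB7-H3, against 2977 in siCont, log2 differences of -0.95 and -0.56. Among 11 genes of calcium-dependent myoblast differentiation and fusion, the median log2 difference for siPF was 0.22 and for siB7-H3 was 0.15. MEF2C had 0.75 and 0.32, and MYMX, a fusion protein of muscle, had 0.91 and 0.41. Some others in this list lay near 0 or lower. MEF2D had -0.37 and -0.27, PPP3CA, a catalytic subunit of calcineurin, had -0.26 and 0.04, and CDKN1A, a cell cycle inhibitor, had 0.00 and -0.21. Further members lay above 0 in siPF, with 0.54 and -0.07 for NFATC1, 0.31 and -0.01 for CAMK2D and 0.22 and 0.26 for NFATC3.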

How the data were processed

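The authors deposited 1 linear intensity for each probe set of each array, made with Affymetrix Expression Console 1.4.1 from biotin-labeled cRNA on 3 arrays. The summarization method and scaling target are not given in the sources used here, and detection calls were not used. Intensities were taken to log2 with no floor or pseudocount, and siCont was subtracted from siPF and siB7-H3. Of 54675 probe sets, 62 control probe sets were left out, and 41091 named with 1 gene in the platform annotation, with symbols updated by gene ID, stood for 19775 genes. Those with more than 1 gene name (1801) or without one (11721) entered 1 alternative only. In lists, the brightest probe set on average stood for a gene.
Every probe set of the 6 genes was reported. Other genes were named where they met the same rule (the 10 with the largest smaller change, and the lower ones, chosen after their values were seen), where they were the 2 nearest in the pair of log2 differences, as relatives picked after their values were seen, or as list members past 2-fold at a mean log2 of at least 7. List members named for their role without passing 2-fold were also chosen after their values were seen. The members, lists and motifs were chosen with earlier results of these data known. No test between conditions was possible with 1 array each, and the number of arrays limits the precision. Python 3.11.15, numpy 2.4.6, pandas 2.3.3 and matplotlib 3.10.9 were used, and the counting was tested on simulated data.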

Additional observations from a re-analysis of the deposited data

How the results depend on the processing

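The 12 log2 differences of the 6 genes at their brightest probe set kept their direction under all 4 rescalings. Moves were at most 0.02 with each array centred on its median, 0.04 with quantile normalization and 0.03 with 16 added to every intensity. The array medians were 70.6 to 71.7, so centring could move little. Setting values under the 60th percentile to it gave 0.00, which was fixed in advance because all these intensities lay above it. KCNJ2 in siB7-H3 was no longer past 2-fold with 16 added. When a gene was given by the median of its probe sets, 5 of 10 values moved, by up to 0.74, and 8 were past 2-fold. RDX in siB7-H3 had 0.62 (1.14 at its brightest probe set) and LIMCH1 0.85 (1.30), both under 2-fold, and EMP2 had 1.92 (1.19). Of the 24 values at other probe sets of the same genes, 2 had the opposite sign, both at the dim RDX probe set 244739_at, with -0.35 in siPF and -0.97 in siB7-H3, and 14 were past 2-fold.
The 38 of 11685 bright probe sets higher on both knockdown arrays became 48 of 15565 at a mean log2 of 8 and 25 of 7764 at 10. The number of probe sets counted over changed with the level. Without probe sets that can bind several transcripts, 26 of 6026 were higher and 2 lower. Of the 11685, 234 were higher at a fold of 1.5 and 1 at a fold of 3. The 3 lower ones became 7 at a mean log2 of 8, 0 at a mean log2 of 10, 61 at a fold of 1.5 and 0 at a fold of 3. With probe sets of more than 1 gene name or without one included, an alternative chosen after seeing the data, the counts were 43 and 4 of 13039. The list counts did not change under the alternatives tried. No paired analysis was possible because each condition had 1 array, and for the same reason no replicate could be left out.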
